A study of Mus musculus with 6 samples.

Results

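The genes described here are 31 genes of cholesterol and fatty acid synthesis, chosen by name for their place in these pathways, with earlier results of these data known, out of 55335 gene rows in the table. They comprise 6 regulators (*Srebf1*, *Srebf2*, *Scap*, *Insig1*, *Insig2* and the sterol carrier *Stard4*), 18 enzymes of the sterol branch and 7 enzymes of the fatty acid branch, and every one of the 31 was expressed highly enough to be tested. The study asked how loss of CD177, a surface protein of neutrophils, in neutrophils that enter the injured spinal cord alters the macrophages they meet. Bone marrow-derived macrophages (BMDMs) of WT mice, grown for 7 days with 25 ng/ml M-CSF, were co-cultured directly for 24 h with neutrophils taken by magnetic sorting from mouse spinal cord lesions at 3 days post injury (dpi). The neutrophils came from *Cd177* WT mice in 3 libraries and from *Cd177* KO mice in the other 3. The macrophages were then isolated by flow cytometry and their RNA was sequenced, so the genotype differs in the neutrophils and not in the macrophages. Neutrophil transcripts were also present in the libraries, as given below. According to the methods all mice were male, and the purchased mice without a knockout were adult C57BL/6. The methods do not state the strain or age of the *Cd177* KO mice that gave neutrophils. Both groups had the same injury, culture and sort, and no library without neutrophils is part of the comparison. Nothing in the labels says that the 3 libraries of a group came from separate cultures or animals, so p-values measure the spread between these libraries, which may be technical.

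Cells make cholesterol from acetyl-CoA through the mevalonate pathway, which runs to squalene, and through the steps from squalene over lanosterol to cholesterol. Fatty acid synthesis starts from the same acetyl-CoA and is followed by elongation and desaturation. Both are governed by the SREBP transcription factors, membrane proteins held in the endoplasmic reticulum by SCAP and the INSIG proteins while sterols are plentiful and cut in the Golgi when sterols are scarce. SREBP-2, the product of *Srebf2*, acts mainly on genes of cholesterol synthesis, and SREBP-1, the product of *Srebf1*, mainly on genes of fatty acid synthesis. In macrophages, sterol and fatty acid supply are known to change with inflammatory activation and with the uptake of dead cells.

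The values were FPKM, that is fragments divided by transcript length and by library depth, whose sums ran from 302532 to 340717 per library, and the implied depth was 17.9 to 20.5 M fragments per library. The first principal component of all tested genes separated the groups with 70.8% of the variance, and the second (13.5%) set both libraries numbered 3 apart from the other 4. *Cd177* itself was listed at 0.544, 0.309 and 0.521 FPKM with WT on the label and at 1.79, 1.84 and 2.28 FPKM with KO on the label. That order is opposite to the neutrophil genotype on the labels, so every direction below refers to the labels. Macrophage markers were high in both groups: 10 genes summed to 6670 to 8036 FPKM in the WT libraries and 7471 to 8152 FPKM in the KO libraries, most of it from *Lyz2* (4462 to 6588 FPKM). All 10 were tested, with 3 called higher and 2 lower and log2 fold changes from -3.33 to 2.96. A list of 14 neutrophil markers summed to 195 to 255 FPKM in WT and 539 to 554 FPKM in KO libraries, with 9 of the 11 tested called higher and 1 called lower. The defining marker *Ly6g* was listed at 0 in all 3 WT libraries and at 0.403 to 0.660 FPKM in the KO libraries. Of 7 B-lineage markers 3 were tested and 2 called higher (sums 4.89 to 6.47 and 18.4 to 19.5 FPKM). Markers of microglia (80.3 to 99.0 and 93.8 to 114 FPKM) and of other neural cells (15.9 to 18.2 and 20.1 to 21.9 FPKM, 3 of 8 genes listed at 0 throughout) lay closer together. The neutrophil and B-lineage sums thus moved with the group labels, as do all differences below, and their part in those differences was not tested. In such bulk samples a change in the number of cells of a type cannot be told apart from a change in RNA per cell.

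Across the 31 genes, expression was mostly higher in the libraries labelled KO, and most of the genes called were in the sterol branch. By limma, with p-values adjusted by Benjamini-Hochberg across 13367 tested genes, 20 of the 31 genes were higher at an adjusted p below 0.05, where 27.1% of all tested genes were, and 0 of 31 were lower, where 10.5% were. In either direction 37.6% of all tested genes were called. By branch, 16 of 18 sterol genes, 3 of 6 regulators and 1 of 7 fatty acid genes were called higher. The median log2 fold change was 0.75 for the sterol branch, 0.51 for the regulators and 0.30 for the fatty acid branch, beside 0.19 for all tested genes. All 3 KO libraries lay above all 3 WT libraries for 23 of the 31 genes, against 37.5% of all tested genes, and the reverse order was seen for 0, against 14.4%. The study's thresholds, a fold change above 2 with an unadjusted p below 0.05, were applied here to the limma fit on log2(FPKM + 0.5). For most of the 31 genes, though not for all, folds on this scale were smaller than between mean FPKM. By these thresholds 6 genes passed (*Srebf2*, *Stard4*, *Mvk*, *Idi1*, *Msmo1* and *Fads1*), all higher, against 6.68% of all tested genes for this direction and 4.43% for the other. The number was 9 with a pseudocount of 0.1 or values rescaled to TPM, and 3 with median-of-ratios scaling or quantile normalization. The share of all tested genes past these thresholds was not taken under those settings. The median of all tested genes was itself 0.19 higher in the KO libraries, and the counts changed with scaling. With median-of-ratios scaling, which brings that median to about 0, 14 of the 31 genes were called higher and 0 lower, against 16.1% and 16.6% of all tested genes, and the sterol median was 0.55. The share of higher calls among all calls was 72.0% with the deposited values and 49.3% with that scaling.

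**Figure D1:**
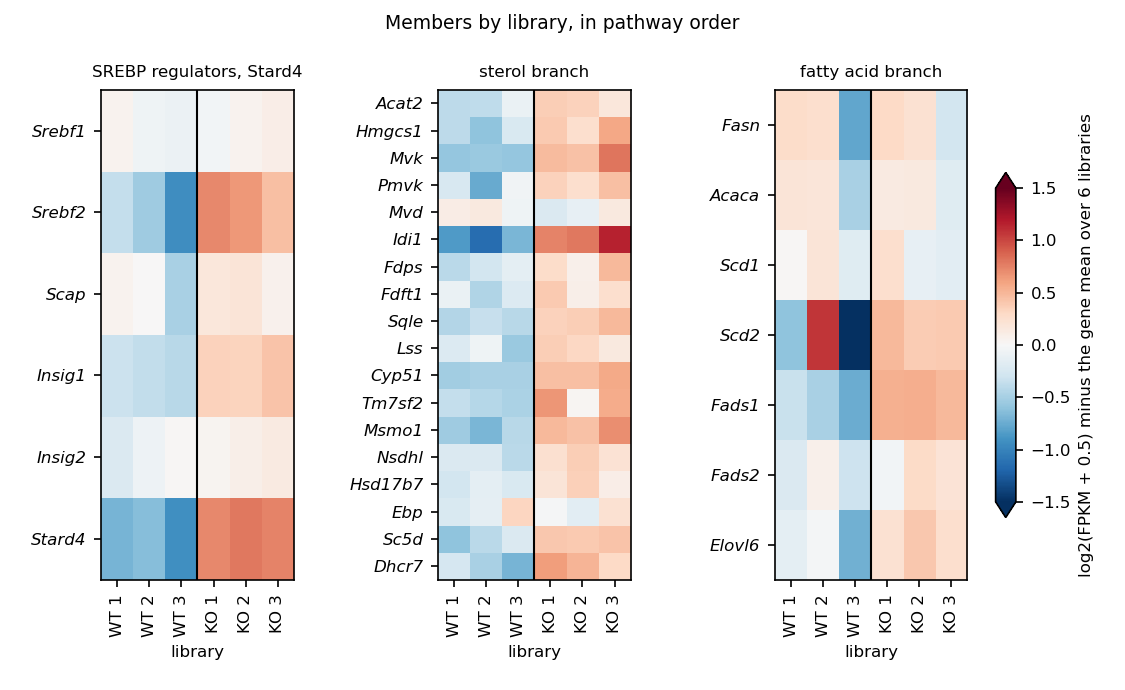
Level of each of the 31 genes in each library, as log2(FPKM + 0.5) minus the gene's mean over the 6 libraries (colour, clipped at 1.5 in either direction), with the rows of each panel in pathway order and a black line between the WT and KO libraries. In the sterol branch 16 of 18 rows were lower in all 3 WT libraries than in all 3 KO libraries, while most rows of the fatty acid branch did not separate in this way.

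**Figure D2:**
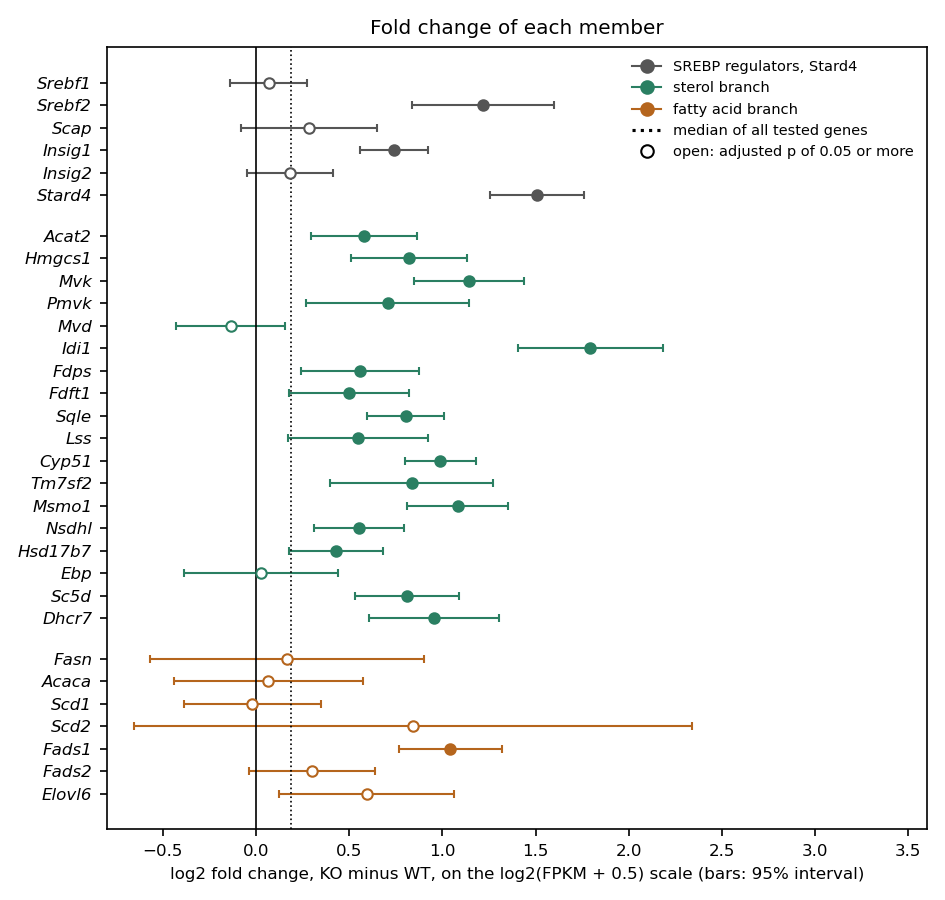
Fitted log2 fold change of each gene, libraries labelled KO minus WT, on the log2(FPKM + 0.5) scale with its 95% interval (horizontal bars, n = 3 and 3 libraries), filled where the adjusted p was below 0.05 and coloured by branch. The dotted line is the median of all tested genes, 0.19, and the sterol genes other than *Mvd* and *Ebp* have their points to its right.

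Promoter sequence is shown because sterol genes are the best known SREBP targets and most of them moved together. The RefSeq table of promoters (mouse build GRCm38.p6, 250 bases before to 50 bases after each annotated start) held 24 of the 31 genes, and *Scd1*, *Scd2*, *Fads1*, *Fdps*, *Fdft1*, *Sqle* and *Stard4* were without an entry. Both strands were searched for 4 motifs, none contained in another: CCAAT (the box bound by NF-Y, a factor known to act with SREBPs), TCACNCCAC (the core of the classical sterol regulatory element), TCACGTGA (an E-box form) and GGGCGG (the GC box bound by Sp1). CCAAT was present in 19 of the 24 genes, against 41.1% of all 27025 genes in the table and 42.9% of the 9279 tested ones. It was found in 14 of 15 sterol genes, 4 of 5 regulators and 1 of 4 fatty acid genes. By call, it was in 14 of the 15 genes called higher beside 5 of the 9 not called, a contrast that followed the branch. The uncalled sterol genes *Mvd* and *Ebp* both held it, and the called gene without it, *Acat2*, is a sterol gene. The uncalled genes without it, *Scap*, *Acaca*, *Fads2* and *Elovl6*, are not in the sterol branch. In the 32 windows of the 24 genes, some with several starts, there were 42 matches. Of these 37 were within 200 bases before the start, and 12 genes had more than 1. The sterol element core was found once, in *Hmgcs1*, at position -137 from the start, against 1.44% of all genes, and TCACGTGA in 0 of 24 genes, against 1.12%. GGGCGG was present in 20 of 24 genes, against 38.2% of all genes and 69.0% of the tested ones. These are matches of letters in a window and do not show binding. Only these spellings were searched, so a window without a match may still hold another form of the element. The 250 bases before the start are printed for 5 genes that were called higher and for *Mvd*, which was not; they run 5′ to 3′ on the gene's strand, with CCAAT (or ATTGG, its reverse complement) and the sterol element core in capitals.
Srebf2, chr15:82147019-82147268, plus strand: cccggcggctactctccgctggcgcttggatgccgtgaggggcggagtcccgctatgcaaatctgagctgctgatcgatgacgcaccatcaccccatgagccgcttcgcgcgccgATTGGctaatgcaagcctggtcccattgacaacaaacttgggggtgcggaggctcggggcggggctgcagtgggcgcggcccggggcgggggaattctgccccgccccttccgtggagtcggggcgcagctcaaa
Hmgcs1, chr13:119690101-119690350, plus strand: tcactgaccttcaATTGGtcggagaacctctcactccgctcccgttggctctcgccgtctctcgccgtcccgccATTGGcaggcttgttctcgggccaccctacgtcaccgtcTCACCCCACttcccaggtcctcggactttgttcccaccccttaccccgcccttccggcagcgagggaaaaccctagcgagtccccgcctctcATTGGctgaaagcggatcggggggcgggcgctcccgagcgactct
Mvk, chr5:114444019-114444268, plus strand: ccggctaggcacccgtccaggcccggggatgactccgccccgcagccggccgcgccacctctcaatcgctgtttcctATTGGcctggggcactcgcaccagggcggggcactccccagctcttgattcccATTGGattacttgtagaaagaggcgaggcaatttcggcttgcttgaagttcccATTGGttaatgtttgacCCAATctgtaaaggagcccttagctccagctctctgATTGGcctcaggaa
Idi1, chr13:8885356-8885605, plus strand: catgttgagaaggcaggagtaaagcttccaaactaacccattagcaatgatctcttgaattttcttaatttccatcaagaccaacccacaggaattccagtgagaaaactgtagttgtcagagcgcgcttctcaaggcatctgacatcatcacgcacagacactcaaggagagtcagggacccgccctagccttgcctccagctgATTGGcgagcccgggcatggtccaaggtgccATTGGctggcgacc
Cyp51, chr5:4104698-4104947, minus strand: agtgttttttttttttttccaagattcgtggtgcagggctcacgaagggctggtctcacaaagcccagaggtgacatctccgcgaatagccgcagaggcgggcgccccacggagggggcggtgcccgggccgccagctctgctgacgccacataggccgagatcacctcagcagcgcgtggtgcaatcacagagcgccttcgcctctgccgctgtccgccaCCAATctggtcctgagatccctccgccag
Mvd, chr8:122443423-122443672, minus strand: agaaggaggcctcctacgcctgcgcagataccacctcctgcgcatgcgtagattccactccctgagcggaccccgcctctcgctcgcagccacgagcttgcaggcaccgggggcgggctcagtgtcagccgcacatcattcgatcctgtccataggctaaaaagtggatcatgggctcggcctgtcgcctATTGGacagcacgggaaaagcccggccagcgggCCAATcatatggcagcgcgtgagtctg

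**Figure D3:**
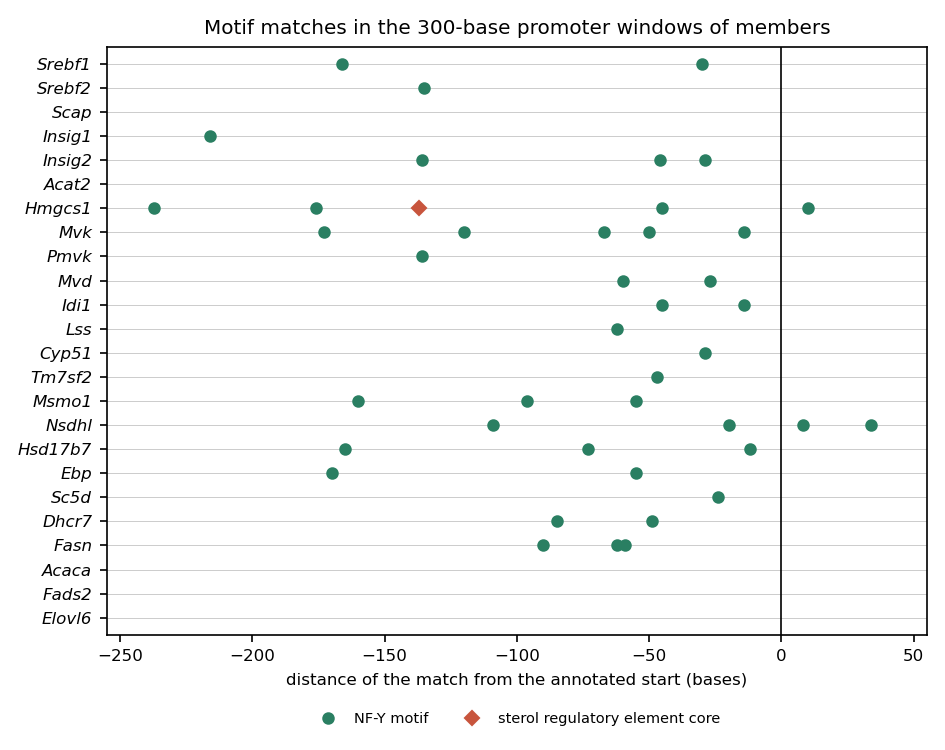
Positions of 2 motifs in the promoter windows of the 24 genes with an entry, as the distance in bases of each match from the annotated start (vertical line); circles are the CCAAT box bound by NF-Y and the diamond is the sterol regulatory element core. Most circles lie within 200 bases before the start, *Mvk* has 5, and *Scap*, *Acat2*, *Acaca*, *Fads2* and *Elovl6* have 0.

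Among the regulators, *Srebf2* was higher in the libraries labelled KO and *Srebf1* showed no detectable difference. *Srebf2* (ENSMUSG00000022463) measured 12.8, 11.4 and 8.50 FPKM in WT libraries 1, 2 and 3 and 27.8, 26.4 and 23.0 FPKM in KO libraries 1, 2 and 3. The groups did not overlap, and the mean rose 2.36-fold, from 10.9 ± 2.21 to 25.7 ± 2.48 FPKM (mean ± SD, n = 3), with a log2 fold change of 1.22 (SE 0.16, adjusted p = 0.00144) by limma on the log2(FPKM + 0.5) scale. *Srebf1* (ENSMUSG00000020538) measured 11.7, 10.7 and 10.6 FPKM in WT libraries 1, 2 and 3 and 10.9, 11.7 and 12.1 FPKM in KO libraries 1, 2 and 3. Its groups overlapped, and its log2 fold change of 0.07 had a 95% interval of -0.14 to 0.27 (adjusted p = 0.574 by limma). The FPKM levels of the 2 genes, which are per transcript length, were thus similar in the WT libraries, and that of *Srebf2* was the higher in each KO library.

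*Scap*, which escorts SREBPs to the Golgi, measured 9.42, 9.15 and 6.36 FPKM in WT libraries 1, 2 and 3 and 10.3, 10.5 and 9.55 FPKM in KO libraries 1, 2 and 3. WT library 3 was the lowest of the 6, and although all KO libraries lay above all WT libraries, the log2 fold change of 0.28 (95% interval -0.08 to 0.65) did not pass the test (adjusted p = 0.191 by limma). Without WT library 3 it was 0.11. *Insig1* (ENSMUSG00000045294), whose protein retains SCAP and which is itself a known SREBP target, was the most abundant regulator. It measured 15.9, 15.3 and 14.9 FPKM in WT libraries 1, 2 and 3 and 25.6, 25.3 and 27.1 FPKM in KO libraries 1, 2 and 3. The libraries of each group lay close together and far from the other group, and the mean rose from 15.4 ± 0.523 to 26.0 ± 0.946 FPKM, a log2 fold change of 0.74 (SE 0.08, adjusted p = 0.000516) by limma. Its relative *Insig2*, known to be less dependent on SREBP, measured 5.89, 6.55 and 7.06 FPKM in WT libraries 1, 2 and 3 and 7.17, 7.43 and 7.68 FPKM in KO libraries 1, 2 and 3. These values did not overlap either, but by a narrow margin, and the log2 fold change of 0.18 (95% interval -0.05 to 0.41, adjusted p = 0.184 by limma) was close to the median of all genes.

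*Stard4* (ENSMUSG00000024378), which encodes a soluble carrier that moves cholesterol between membranes, had the largest log2 fold change of the 6. It measured 2.44, 2.57 and 2.03 FPKM in WT libraries 1, 2 and 3 and 7.41, 7.80 and 7.48 FPKM in KO libraries 1, 2 and 3. Each KO library was above every WT library by more than the spread within either group, and the mean rose 3.22-fold, from 2.35 ± 0.284 to 7.56 ± 0.206 FPKM, with a log2 fold change of 1.51 (SE 0.11, adjusted p = 0.000102) by limma. Median-of-ratios scaling left *Srebf2*, *Insig1* and *Stard4* called higher, and it reduced the regulators whose groups did not overlap from 5 to 3. Summed over the 6 genes, expression was 49.4 to 58.2 FPKM in the WT libraries and 86.8 to 89.1 FPKM in the KO libraries.

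**Figure D4:**
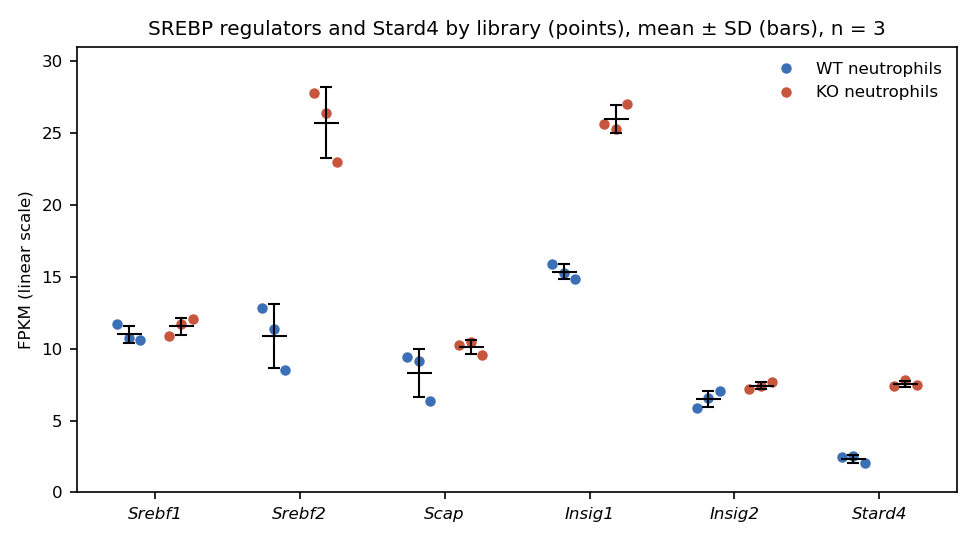
FPKM of the 6 regulators in each library, with 3 points per group, and the group mean ± SD as a line with bars. *Srebf2*, *Insig1* and *Stard4* are separated by wide gaps, *Scap* and *Insig2* by narrow ones, and the groups of *Srebf1* overlap.

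The sterol branch was higher along nearly its whole length, with 7 of 8 enzymes up to squalene synthesis and 9 of 10 from squalene onwards called higher. The largest change was in *Idi1*, the isomerase that interconverts the isoprenoid building blocks. The exceptions were *Mvd* and *Ebp*, whose groups overlapped. The 18 genes summed to 91.2 to 103 FPKM in the WT libraries and 148 to 170.0 FPKM in the KO libraries, 1.64 times higher on average.

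In the mevalonate part, *Hmgcs1* (ENSMUSG00000093930), the synthase that makes HMG-CoA, had the highest mean of the branch over the 6 libraries (15.6 FPKM), just above *Ebp* (15.4 FPKM), which was the higher of the pair in the WT group and the lower in the KO group. It measured 11.2, 9.64 and 12.6 FPKM in WT libraries 1, 2 and 3 and 19.7, 17.8 and 22.6 FPKM in KO libraries 1, 2 and 3. Its mean rose from 11.1 ± 1.46 to 20.03 ± 2.38 FPKM, a log2 fold change of 0.82 (SE 0.13, adjusted p = 0.00333) by limma. *Mvk* (ENSMUSG00000041939), mevalonate kinase, measured 2.55, 2.59 and 2.56 FPKM in WT libraries 1, 2 and 3 and 5.81, 5.66 and 7.47 FPKM in KO libraries 1, 2 and 3. The WT libraries were nearly equal, the KO libraries were all higher with KO library 3 the highest, and the mean rose 2.46-fold with a log2 fold change of 1.14 (SE 0.12, adjusted p = 0.000612). *Idi1* (ENSMUSG00000058258) measured 2.51, 1.95 and 2.87 FPKM in WT libraries 1, 2 and 3 and 8.61, 8.90 and 11.6 FPKM in KO libraries 1, 2 and 3. The groups were far apart, with KO library 3 again the highest, and the mean rose 3.97-fold, from 2.44 ± 0.460 to 9.70 ± 1.64 FPKM, with a log2 fold change of 1.79 (SE 0.16, adjusted p = 0.000312) by limma.

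The other called genes of this part changed less. *Acat2*, the cytosolic thiolase of the first step, rose by 0.58 on the log2 scale (adjusted p = 0.00941 by limma, as for the values that follow). *Pmvk*, phosphomevalonate kinase, rose by 0.71 (adjusted p = 0.0235), *Fdps*, farnesyl diphosphate synthase, by 0.56 (adjusted p = 0.0166), and *Fdft1*, squalene synthase, by 0.50 (adjusted p = 0.0268). These 4 lost the call with median-of-ratios scaling, where their adjusted p ran from 0.0525 to 0.127. *Mvd*, mevalonate diphosphate decarboxylase, was not called and measured 11.04, 11.3 and 9.68 FPKM in WT libraries 1, 2 and 3 and 8.65, 9.25 and 11.3 FPKM in KO libraries 1, 2 and 3. Its groups overlapped, with a log2 fold change of -0.13 (95% interval -0.43 to 0.16, adjusted p = 0.426). Without both libraries numbered 3, an alternative added after the data were seen, it was called lower, at -0.31 (adjusted p = 0.0199).

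From squalene onwards, *Sqle*, squalene epoxidase, a rate-limiting step of the pathway, rose from 5.31 ± 0.185 to 9.65 ± 0.561 FPKM, a log2 fold change of 0.80 (SE 0.09, adjusted p = 0.000612) by limma. *Lss*, lanosterol synthase, rose by 0.55 on the log2 scale (adjusted p = 0.0334) from a low level, 1.05 to 1.68 FPKM in the WT libraries and 2.03 to 2.43 FPKM in the KO libraries. *Cyp51* (ENSMUSG00000001467), the cytochrome P450 that demethylates lanosterol, measured 7.77, 7.99 and 7.99 FPKM in WT libraries 1, 2 and 3 and 15.8, 15.7 and 17.1 FPKM in KO libraries 1, 2 and 3. It was among the tightest of the 18 within groups and rose 2.05-fold, from 7.92 ± 0.128 to 16.2 ± 0.796 FPKM, a log2 fold change of 0.99 (SE 0.08, adjusted p = 0.000189). *Tm7sf2* (ENSMUSG00000024799), a sterol reductase, had the lowest level of the branch and measured 0.914, 0.846 and 0.807 FPKM in WT libraries 1, 2 and 3 and 2.36, 1.35 and 2.17 FPKM in KO libraries 1, 2 and 3. KO library 2 lay closer to the WT libraries than to KO libraries 1 and 3, and the log2 fold change was 0.84 (SE 0.18, adjusted p = 0.0122) by limma.

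*Msmo1* (ENSMUSG00000031604), the monooxygenase that starts removal of the methyl groups at carbon 4, measured 6.18, 5.49 and 6.75 FPKM in WT libraries 1, 2 and 3 and 13.0, 12.6 and 15.1 FPKM in KO libraries 1, 2 and 3. The lowest KO library was well above the highest WT library, and the log2 fold change was 1.08 (SE 0.11, adjusted p = 0.000553) by limma. The enzymes that follow it in the demethylation, *Nsdhl* and *Hsd17b7*, rose less, by 0.55 (adjusted p = 0.00575) and 0.43 (adjusted p = 0.0187) on the log2 scale. *Ebp*, the sterol isomerase, had a level similar to that of *Hmgcs1* but no detectable difference, and measured 12.9, 13.8 and 19.3 FPKM in WT libraries 1, 2 and 3 and 15.0, 13.6 and 17.9 FPKM in KO libraries 1, 2 and 3. WT library 3 was the highest of the 6, and the log2 fold change was 0.03 with an interval of -0.39 to 0.44 (adjusted p = 0.914 by limma). *Sc5d*, a sterol desaturase, rose from 4.15 ± 0.619 to 7.62 ± 0.0920 FPKM, a log2 fold change of 0.81 (SE 0.12, adjusted p = 0.00212). *Lss* and *Hsd17b7* lost the call with median-of-ratios scaling (adjusted p = 0.104 and 0.125), and *Tm7sf2* with quantile normalization (adjusted p = 0.0566). *Dhcr7* (ENSMUSG00000058454), the reductase that makes cholesterol from 7-dehydrocholesterol, measured 3.996, 3.35 and 2.82 FPKM in WT libraries 1, 2 and 3 and 7.81, 7.15 and 6.09 FPKM in KO libraries 1, 2 and 3. Both groups were lowest in library 3 and did not overlap, and the log2 fold change was 0.96 (SE 0.15, adjusted p = 0.00285) by limma.

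In the fatty acid branch *Fads1* was the only 1 of 7 genes called higher, and the groups of 5 genes overlapped. *Fads1* (ENSMUSG00000010663), the desaturase that acts late in the synthesis of arachidonic acid and other polyunsaturated fatty acids, had the highest mean of the 7 over all libraries, although *Scd2* had the higher mean in the WT group. It measured 13.4, 12.0 and 9.97 FPKM in WT libraries 1, 2 and 3 and 24.8, 24.9 and 24.1 FPKM in KO libraries 1, 2 and 3. The groups were far apart, the KO libraries nearly equal, and the mean rose 2.09-fold, from 11.8 ± 1.70 to 24.6 ± 0.488 FPKM, a log2 fold change of 1.04 (SE 0.12, adjusted p = 0.000696) by limma.

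Of the enzymes that make saturated fatty acids, *Fasn* and *Acaca* showed no detectable difference, and *Elovl6* lay close to the threshold. *Fasn*, fatty acid synthase, measured 13.3, 13.0 and 6.15 FPKM in WT libraries 1, 2 and 3 and 13.5, 12.8 and 8.90 FPKM in KO libraries 1, 2 and 3. In both groups library 3 was the lowest, and the log2 fold change of 0.17 had a wide interval, -0.57 to 0.90 (adjusted p = 0.701 by limma). *Acaca*, the acetyl-CoA carboxylase that supplies malonyl-CoA, ran from 1.29 to 2.37 FPKM in the WT libraries and from 1.71 to 2.26 FPKM in the KO libraries, also lowest in library 3, with a log2 fold change of 0.07 (interval -0.44 to 0.58, adjusted p = 0.829). *Elovl6*, which lengthens palmitate, was at 0.780 to 1.57 FPKM in the WT libraries and 1.98 to 2.30 FPKM in the KO libraries. The groups did not overlap, and the log2 fold change of 0.59 (interval 0.13 to 1.06) fell just short of the threshold (adjusted p = 0.0528 by limma). Without WT library 3 it passed (adjusted p = 0.0419), and likewise without WT library 2 (0.0435).

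Of the desaturases that make monounsaturated fatty acids, *Scd1* ran from 3.22 to 4.32 FPKM in the WT libraries and from 3.28 to 4.497 FPKM in the KO libraries, a log2 fold change of -0.02 (interval -0.39 to 0.35, adjusted p = 0.935 by limma). *Scd2* measured 9.54, 31.4 and 4.07 FPKM in WT libraries 1, 2 and 3 and 20.8, 19.4 and 19.5 FPKM in KO libraries 1, 2 and 3. The WT libraries spread more widely than those of any other of the 31 genes, with WT library 2 the highest of the 6 and WT library 3 the lowest, and the log2 fold change of 0.84 had an interval of -0.65 to 2.34 (adjusted p = 0.333). Without WT library 2 the log2 fold change was 1.59 and was called (adjusted p = 0.0161), and without WT library 3 it was 0.19 (adjusted p = 0.761), so the value rested on single WT libraries. The tool that assigned reads to genes is not given in the sources used here, so how reads shared between the similar *Scd* genes were counted is not known. *Fads2*, the desaturase of the first step towards polyunsaturated fatty acids, ran from 2.96 to 4.02 FPKM in the WT libraries and from 3.69 to 4.73 FPKM in the KO libraries, a log2 fold change of 0.30 (interval -0.04 to 0.64, adjusted p = 0.142).

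Ratios of related genes within a library depend on scaling between libraries only through the 0.5 FPKM added to each value. The log2 ratio of *Srebf1* to *Srebf2* was -0.13, -0.08 and 0.30 in the WT libraries and -1.31, -1.14 and -0.90 in the KO libraries, a difference of -1.15. That of *Insig1* to *Insig2* was 1.36, 1.16 and 1.02 in the WT libraries and 1.77, 1.70 and 1.75 in the KO libraries, a difference of 0.56. Neither ratio overlapped between the groups, and for both the exact permutation test gave p = 0.1, the smallest that 3 libraries against 3 allow (0.15 after Benjamini-Hochberg adjustment over 3 ratios). The ratio of *Scd1* to *Scd2* overlapped, with a difference of -0.86 (exact permutation p = 0.4, adjusted 0.4), and the spread came from *Scd2* in the WT libraries. It was -1.51 without WT library 2 and -0.30 without WT library 3. *Fads1* and *Fads2* are neighbours on chromosome 19, on opposite strands and 81.1 kb apart in GENCODE M21. Their ratio, chosen after the values were seen, was 1.90, 1.47 and 1.60 in the WT libraries and 2.60, 2.28 and 2.31 in the KO libraries, a difference of 0.74 (exact permutation p = 0.1, the smallest possible).

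**Figure D5:**
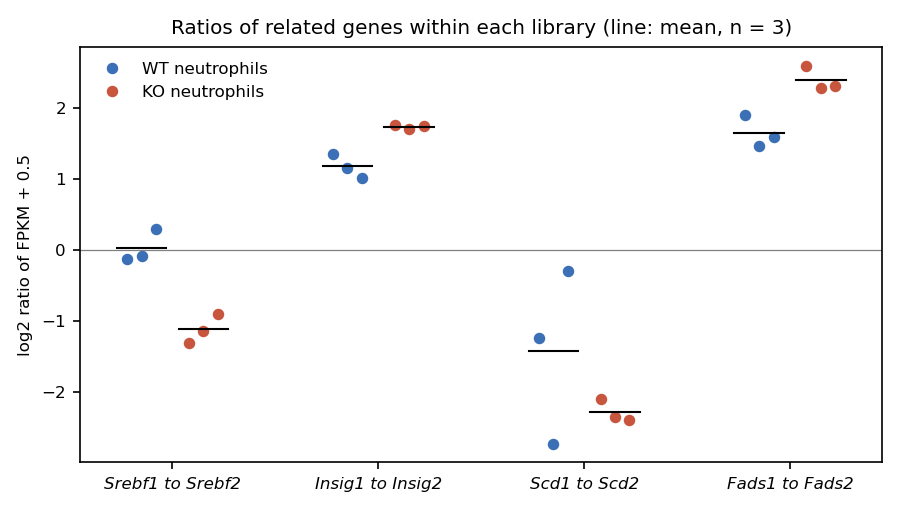
Log2 ratio of FPKM + 0.5 between related genes within each library, with 3 points per group and a line at the group mean. The groups are apart for *Srebf1* to *Srebf2*, *Insig1* to *Insig2* and *Fads1* to *Fads2*, and overlap for *Scd1* to *Scd2*, where the WT libraries run from -2.72 to -0.30.

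With the deposited values, other genes of the same pathways, taken from textbook lists, were called at shares near those of all tested genes. Of 24 tested, 8 were called higher and 2 lower, beside 27.1% and 10.5% of all tested genes. With median-of-ratios scaling 6 were called higher and 6 lower, beside 16.1% and 16.6% of all tested genes. Among the genes listed with the sterol enzymes 3 of 5 were called, all higher. That list includes *Acat1*, which encodes the mitochondrial thiolase and not the cytosolic one of the sterol branch (*Acat2*). *Acat1* rose from 4.52 ± 0.889 to 12.8 ± 1.09 FPKM, a log2 fold change of 1.41 (SE 0.14, adjusted p = 0.000459) by limma. *Erg28*, a scaffold of the demethylation enzymes, rose by 0.50 on the log2 scale (adjusted p = 0.00679).

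Of 7 other regulators, 3 were called higher and 1 lower, too few to set against the shares of 27.1% and 10.5%. *Mbtps2* and *Mbtps1*, the proteases that release SREBPs in the Golgi, rose by 0.73 (adjusted p = 0.00424 by limma) and 0.53 (adjusted p = 0.0186) on the log2 scale. *Mylip*, a ubiquitin ligase known as a target of the sterol sensor LXR, measured 24.7, 24.6 and 25.3 FPKM in WT libraries 1, 2 and 3 and 18.5, 18.03 and 17.6 FPKM in KO libraries 1, 2 and 3. It was lower in every KO library than in any WT library, a log2 fold change of -0.46 (SE 0.07, adjusted p = 0.00329).

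Of 12 other fatty acid genes, 2 were called higher and 1 lower, no more than the shares of 27.1% and 10.5% over all tested genes. *Elovl5*, which lengthens polyunsaturated fatty acids between the steps of *Fads2* and *Fads1*, rose from 9.65 ± 0.557 to 15.1 ± 1.09 FPKM, a log2 fold change of 0.62 (SE 0.09, adjusted p = 0.00262) by limma. *Tecr*, the last enzyme of each elongation cycle, rose by 0.53 (adjusted p = 0.00605) on the same scale. *Acss2*, which makes cytosolic acetyl-CoA from acetate and is a known SREBP target, went the other way and measured 1.90, 2.04 and 1.72 FPKM in WT libraries 1, 2 and 3 and 0.447, 0.336 and 0.383 FPKM in KO libraries 1, 2 and 3. It fell with a log2 fold change of -1.43 (SE 0.13, adjusted p = 0.000283), opposite to the sterol enzymes.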

How the data were processed

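RNA-seq of 6 libraries, 3 per group, was analysed from 1 deposited table of FPKM values with 55335 Ensembl gene identifiers, of which 99.7% matched a symbol in GENCODE M21. FPKM were computed by the authors, and counts were not used here. The submitters' processing notes name fastp 0.17.1, HISAT2 2.1.0, R 3.4.3 and DESeq2 1.18.1, and the genome build and the counting tool are not given in the sources used here. Low values were within 0.1 of a whole multiple of 1 read for 39.9% to 44.0% of values (20% by chance), so reads were not recovered and the implied depths are approximate.

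The 13367 genes that averaged 0.5 FPKM or more were tested with limma 3.58.1 in R 4.3.3 on log2(FPKM + 0.5), with a trended variance, two-sided, and p-values were adjusted by Benjamini-Hochberg across them. Fold changes on this scale understate the change of low genes. Only the limma fit was tested on simulated data. Ratios used an exact two-sided permutation test. Figures and motif searches used Python 3.11.15, pandas 2.3.3, numpy 2.4.6 and matplotlib 3.10.9. Gene members and lists were chosen with earlier results of these data known. Values in every library were given for the 6 regulators, up to 6 sterol and up to 4 fatty acid genes with the largest called fold changes (*Fads1* was the only fatty acid gene called), and the gene of each branch with the highest mean FPKM over the 6 libraries, and those of *Mvd*, *Ebp*, *Fasn* and *Scd2* were added after they were seen. Of the other pathway genes, the 3 largest called in each list were named, except that some genes are not reported here. Alternatives were other pseudocounts, filters, scalings, a robust variance, a replicate block and leaving out libraries. Libraries with the same number in the 2 groups deviated together weakly, with correlations of 0.12, 0.04 and 0.26, so the numbers were not taken as pairs. Libraries with different numbers had correlations from -0.23 to 0.16, so the value for number 3 was the highest. With the numbers as a replicate block, 5934 of all tested genes were called in either direction, against 5027 without it.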

Additional observations from a re-analysis of the deposited data

How the results depend on the processing

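Of the 20 genes called higher, 13 were called under all 17 alternatives and 0 changed direction in any. The other 7, *Acat2*, *Pmvk*, *Fdps*, *Fdft1*, *Lss*, *Tm7sf2* and *Hsd17b7*, each lost the call under at least 1 alternative. Leaving out KO library 1 ended the call of *Pmvk*, *Fdps*, *Fdft1*, *Lss* and *Hsd17b7* (adjusted p 0.0562 to 0.111 by limma), leaving out KO library 2 that of *Pmvk*, *Lss* and *Hsd17b7* (0.0551 to 0.103), KO library 3 that of *Pmvk*, *Fdft1* and *Lss* (0.0524 to 0.0712), WT library 1 that of *Fdps*, *Lss* and *Hsd17b7* (0.0588 to 0.0688) and WT library 2 that of *Fdft1* (0.0734). The number called higher was 13 of 31 with quantile normalization, and in the sterol branch 10 with median-of-ratios scaling and 9 with quantile normalization. Of all 13367 tested genes, 2156 were called higher with median-of-ratios scaling and 2426 with quantile normalization. In the fatty acid branch 2 genes were called higher with a pseudocount of 1 and 2 with the replicate block, beside 3641 and 4253 of all tested genes. The block added *Elovl6* (adjusted p = 0.036 by limma) and changed no other call among the 31. When 1 library was left out, 1 to 3 fatty acid genes were called higher, beside 2442 to 4228 of all tested genes. Without both libraries numbered 3, 1 gene (*Mvd*) was called lower, beside 1943 of all tested genes. With median-of-ratios scaling 6 of the 24 other pathway genes tested were called lower, beside 16.6% of all tested genes. The study's rule was passed by 3 of the 31 genes with median-of-ratios and 3 with quantile normalization, and by 1, 1, 6 and 6 sterol genes with median-of-ratios, quantile normalization, a pseudocount of 0.1 and TPM. No fatty acid gene (0) passed it with median-of-ratios, quantile or upper-quartile scaling or without both libraries numbered 3. When 1 library was left out it was passed by 3 to 5 sterol and 0 to 2 fatty acid genes, and 2 to 4 fatty acid genes did not overlap between the groups. Non-overlap of the regulators fell to 3 with median-of-ratios and 3 with upper-quartile scaling. For the study's rule and for non-overlap, shares over all tested genes were taken only with the deposited values of all libraries. Counts of these under other settings thus have no background beside them, and non-overlap is easier to reach with fewer libraries. Among uncalled genes the sign turned with median-of-ratios scaling for *Srebf1* (-0.14), *Insig2* (-0.020), *Ebp* (-0.18), *Fasn* (-0.037) and *Acaca* (-0.10), with quantile normalization for *Srebf1* (-0.025), *Ebp* (-0.044) and *Acaca* (-0.18), and with upper-quartile scaling for *Srebf1* (-0.017), *Ebp* (-0.057) and *Acaca* (-0.0026). It also turned for *Acaca* without both libraries numbered 3 (-0.053). When 1 library was left out, the log2 fold change ran from -0.082 to 0.20 for *Ebp*, -0.18 to 0.35 for *Fasn*, -0.16 to 0.18 for *Acaca* and -0.15 to 0.074 for *Scd1*. The cause of these changes was not tested. With 3 libraries a group and unknown read counts, real differences may have gone uncalled, and the intervals given show how uncertain each estimate was.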
